A study of Mus musculus with 27 samples.

Results

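Ccdc154, Ccdc13, Barx2 and Pde6c are 4 mouse genes chosen because they were near 0 in control islets at 8 weeks and clearly present in islets whose beta cells carry Nkx2.2 with a mutated SD domain, a part of this transcription factor. Each of the 4 was found in all 3 count tables of the series, which list 26487 genes for islets, 55536 for embryonic pancreas and 39017 for neural progenitors. The genes were chosen by their levels in 8-week control and betaSDmut islets, so those values are given as a description and with no test. The other islets, the embryonic pancreas, the progenitors and the Nkx2.2 binding data were not used for the choice.

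The 24 RNA libraries came from 9 groups. Islets at 8 weeks of age were wildtype controls (8wk control, n = 2) or carried the Nkx2.2SDmut mutation specifically in beta cells (betaSDmut, n = 3). Islets at 4 weeks of age were controls (4wk control, n = 2) or were labelled betaKO (n = 2), with no genotype beyond that name. Whole pancreas at E15.5 came from controls (n = 3) and Nkx2.2SDmut animals (n = 4). Motor neuron progenitors, differentiated for 4 days from mouse embryonic stem cells, were untreated cells of the iNkx2.2 line (pMN, n = 3), the same line after about 16 h in doxycycline (1 µg/ml), which makes it express wildtype FLAG-tagged Nkx2.2 (iNkx2.2, n = 3), or another line treated likewise, which expresses the SD-domain mutant (iSDmut, n = 2). Binding of Nkx2.2 was profiled by ChIP-seq in MIN6 cells, a mouse insulinoma line used as a beta-cell model (n = 2, with 1 input library not used here). The Cre driver of the beta-specific alleles and the strains are not given in the sources used here, and each inducible line is 1 cell line. In iNkx2.2 against pMN, doxycycline and wildtype Nkx2.2 cannot be told apart. The iSDmut line has no untreated library here, so against pMN its line, doxycycline and mutant protein cannot be told apart. Against iNkx2.2, line and protein cannot be told apart. Nothing in the labels says that same-group islet or progenitor libraries came from separate animals or differentiations, so p-values measure the spread between these libraries.

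Nkx2.2 is a homeodomain factor of the NK2 class, whose SD (specific domain) is a conserved stretch found in this class. In the pancreas it is known for the formation and upkeep of beta cells, in part by repressing genes of other cell types, and in the ventral spinal cord it patterns progenitors. The 4 genes have no shared textbook role in islets. Pde6c encodes the catalytic subunit of the cone photoreceptor phosphodiesterase, which hydrolyses cyclic GMP in the light response. Barx2 encodes a Bar-class homeodomain factor known from muscle precursors and epithelia. Ccdc13 encodes a coiled-coil protein of centriolar satellites, the granules around the base of the cilium. Ccdc154 encodes a coiled-coil protein whose loss in mice causes osteopetrosis, a failure of bone resorption.

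All 4 genes are annotated as protein-coding in GENCODE vM21 on GRCm38. Ccdc154 (ENSMUSG00000059562) lies on the plus strand at chr17:25162461-25171913. Ccdc13 (ENSMUSG00000079235) lies on the minus strand at chr9:121797627-121839461, and Barx2 (ENSMUSG00000032033) on the minus strand of the same chromosome at chr9:31846044-31913462. Pde6c (ENSMUSG00000024992) lies on the plus strand at chr19:38132781-38183958. Of the sites bound by Nkx2.2 in MIN6 cells, 1 near each start and 2 near Pde6c are shown here, because they place the binding data of the series beside the 4 genes. Each line gives 251 bases around an event called by the authors with the GEM peak caller, read from the GRCm38.p6 assembly on the plus strand. Capitals mark AAGTG, the core of the NK2-class motif, or its reverse complement CACTT.
Ccdc154 site, chr17:25175675-25175925, between genes: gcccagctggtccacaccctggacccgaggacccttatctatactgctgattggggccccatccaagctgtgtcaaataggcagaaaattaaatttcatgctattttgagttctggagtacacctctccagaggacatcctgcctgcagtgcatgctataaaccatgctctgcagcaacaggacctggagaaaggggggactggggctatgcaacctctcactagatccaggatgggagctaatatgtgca
Ccdc13 site, chr9:121870051-121870301, intron of the non-coding gene Gm47113: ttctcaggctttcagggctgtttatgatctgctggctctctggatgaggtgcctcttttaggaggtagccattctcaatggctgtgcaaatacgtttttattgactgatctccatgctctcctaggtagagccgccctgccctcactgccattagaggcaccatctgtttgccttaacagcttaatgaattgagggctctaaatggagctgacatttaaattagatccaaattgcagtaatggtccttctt
Barx2 site, chr9:31910236-31910486, intron of Barx2 and of Gm31497: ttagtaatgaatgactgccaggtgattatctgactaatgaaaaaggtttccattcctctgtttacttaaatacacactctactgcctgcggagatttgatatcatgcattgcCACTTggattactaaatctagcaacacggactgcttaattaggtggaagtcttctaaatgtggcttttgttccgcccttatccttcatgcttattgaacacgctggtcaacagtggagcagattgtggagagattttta
Pde6c upstream site, chr19:38131903-38132153, between genes: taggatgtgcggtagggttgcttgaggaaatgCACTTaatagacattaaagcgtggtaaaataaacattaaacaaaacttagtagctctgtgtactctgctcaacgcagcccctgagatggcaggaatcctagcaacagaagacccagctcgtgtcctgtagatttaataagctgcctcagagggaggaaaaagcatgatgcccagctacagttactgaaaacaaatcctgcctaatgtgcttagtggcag
Pde6c intron site, chr19:38172295-38172545, intron of Pde6c: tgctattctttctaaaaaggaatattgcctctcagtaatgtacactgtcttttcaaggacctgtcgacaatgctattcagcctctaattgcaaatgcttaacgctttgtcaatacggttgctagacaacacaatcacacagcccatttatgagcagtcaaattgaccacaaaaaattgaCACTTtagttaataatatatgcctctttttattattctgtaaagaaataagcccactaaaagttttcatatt

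The 2 Pde6c sites and the Barx2 site each hold 1 copy of the core, and the Ccdc154 and Ccdc13 sites hold 0. The Pde6c sites shown are those of its 6 events that hold the core, and its strongest event is not among them. The second Ccdc13 and Barx2 events, not shown, hold 1 copy each, and the second Ccdc154 event holds 0. The core, searched on both strands, was present in 49.2% of all 10749 event windows, in 46.7% of windows 1000 bp away and in 46.4% of 32851 promoter windows of 300 bases. The longer motif TNAAGTG, which contains the core, was present in the 2 Pde6c sites alone of the 12 events within 100 kb of the 4 starts. It occurred in 18.6% of all event windows, 17.5% of the 6473 events that the authors kept as final sites, 13.9% of windows 1000 bp away and 11.5% of promoter windows. In the Pde6c sites the match lay 54 bp (intron site) and 87 bp (upstream site) from the event position. Of the 4 genes, Ccdc13 was found in the RefSeq promoter table, and its window on GRCm38 had 0 matches to TNAAGTG.

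The sites near Ccdc154 and Ccdc13 were among the strongest Nkx2.2 events of the MIN6 data. The Ccdc154 site, 13339 bp downstream of its start and past its end, had 1061 and 781 reads in the 2 replicates, a mean of 9.92 log2 CPM over the reads at events, and ranked 6 of 10749. A second event called beside it, at position 25175647, ranked 7 and shares most of its reads, since reads were counted in windows of 500 bp. An event as strong lay within 100 kb of the start in 0.109% of 12789 protein-coding genes tested in 8-week islets. The nearest protein-coding start to that site was that of Gm38655, 329 bp away, which has no row in the islet and progenitor tables. The Ccdc13 site, 30715 bp upstream of its start, had 654 and 464 reads (mean 9.20 log2 CPM) and ranked 53. An event as strong was found for 0.5% of the 12789 genes. Its nearest protein-coding start was that of Higd1a, 11814 bp away, and the authors' deposited table of bound genes joins the site to Higd1a.

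Barx2 and Pde6c had weaker events. The Barx2 site, 3101 bp inside the gene, had 128 and 85 reads (mean 6.81 log2 CPM, rank 2379), and an event as strong lay near 22.2% of the genes. Pde6c had 6 events within 100 kb, and 1.85% of the genes had at least as many. They ranked between 562 and 5001. The strongest (7.88 log2 CPM) lay 91668 bp downstream, 293 bp from the start of Fra10ac1. The event 67632 bp downstream lay in an intron of Fra10ac1, whose start was the nearest. The event 19968 bp upstream lay in an intron of Ffar4, and the authors' deposited table joins it to Rbp4. The authors' deposited table joins the Barx2 site to Barx2 and the intron site (7.56 log2 CPM, 201 and 155 reads) to Pde6c, and the upstream site, 753 bp before the start, had 59 and 76 reads (6.17 log2 CPM). All 4 genes had at least 1 event within 100 kb, where 59.5% of the 12789 genes did, so having an event is common among islet genes. Within 50 kb it was 4 of 4 genes against 39.0%, and with final sites alone 4 of 4 against 50.5%. The map of events and genes shows these positions.

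**Figure D1:**
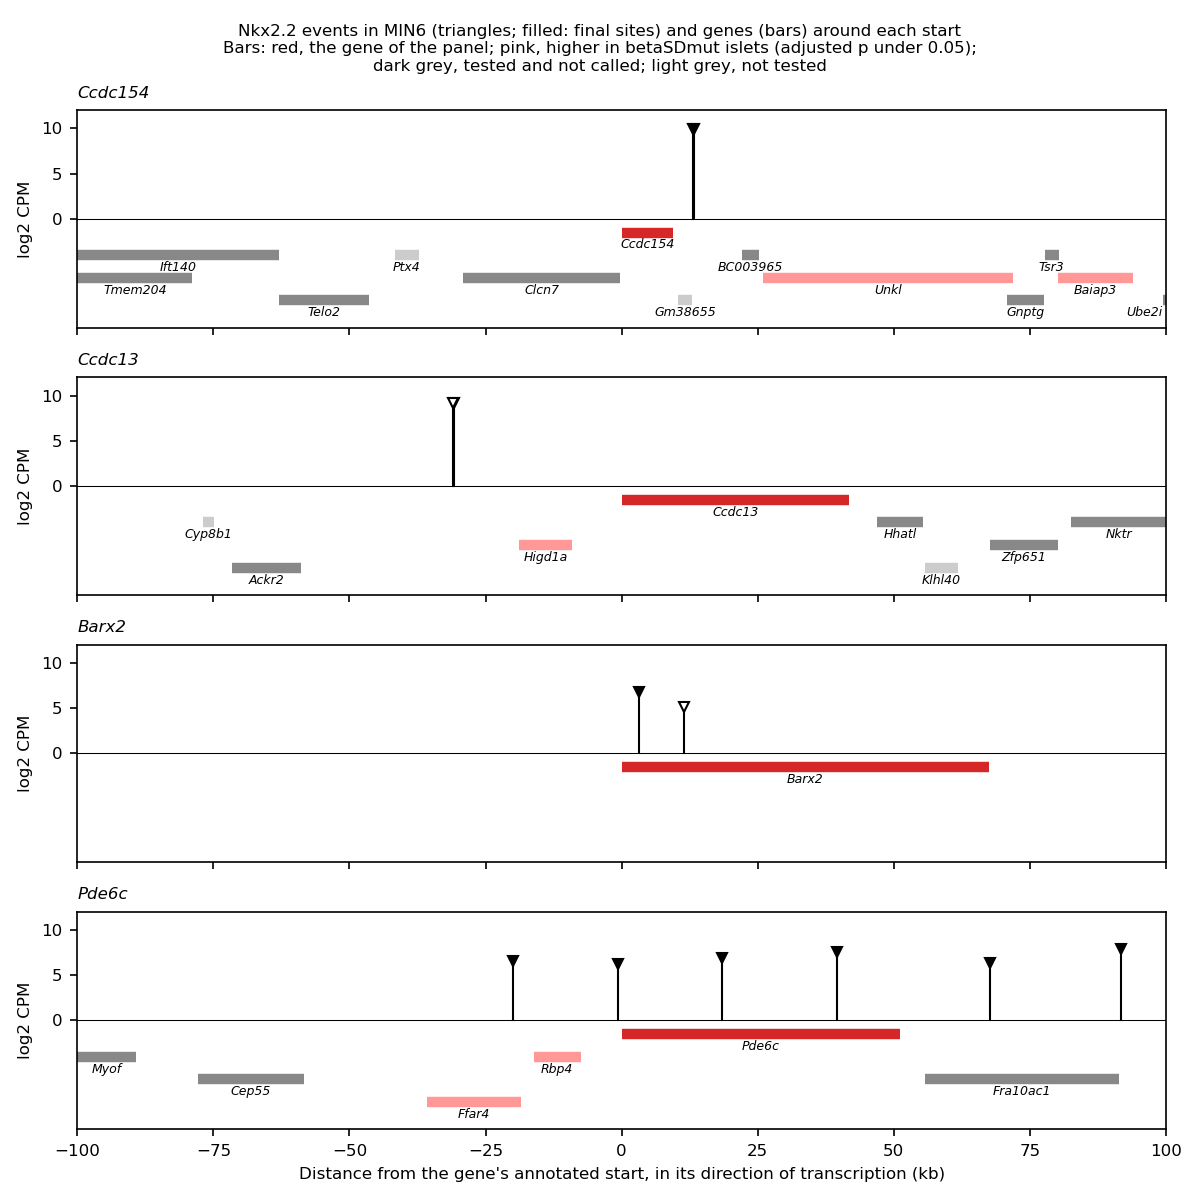
Nkx2.2 events in MIN6 cells (triangles, height in mean log2 CPM of 2 replicates, filled for the authors' final sites) and protein-coding genes (bars) within 100 kb of each start, on an axis of distance in kb along the direction of transcription. The tallest events lie just past Ccdc154 (9.92) and upstream of Ccdc13 beyond Higd1a (9.20), while Pde6c has 6 events of 6.17 to 7.88. The 2 events near Ccdc154 and the 2 near Ccdc13 overlap at this scale.

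Before the 4 genes are compared, the libraries need a word. Total counts were 12398041 to 32385406 for islets, 38447596 to 41840638 for embryonic pancreas and 17757991 to 46840701 for progenitors. Levels are given as CPM, counts scaled to a common depth with factors from the trimmed mean of M values (TMM) over all libraries of a table. Nkx2-2 itself, a count that does not separate wildtype from mutant transcripts, was at 64.6 and 93.1 CPM in the libraries labelled betaKO against 75.8 and 102 CPM in 4wk controls (log2 fold change -0.18, SE 0.237, edgeR adjusted p = 0.779). The labels thus have no support from the level of the targeted gene, and whether the counted reads fall in a deleted part is not given. Labels give genomic DNA as the molecule of the 4-week islets, while the columns named for them hold counts per gene as for the other islets. In 8-week islets Nkx2-2 was at 81.8 to 104 CPM with the mutation and 88.4 to 102 CPM without. All 9 islet libraries had counts of all 7 beta-cell markers, with a summed level of 201400 to 219100 CPM in betaSDmut islets against 235400 and 241200 CPM in 8wk controls, and of 179300 and 166800 CPM in betaKO islets against 209700 and 213500 CPM in 4wk controls. In both comparisons every mutant library was below its controls. In E15.5 pancreas, control 3 and SDmut 2 stood apart by muscle transcripts (4 markers, summed 3948 and 4393 CPM against 6.39 to 53.7 in the other 5 libraries).

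Between control and mutant islets at 8 weeks the 4 genes went from absent or nearly absent to moderate levels. Ccdc154 had 0 counts in both controls and 9.35, 5.07 and 5.72 CPM in betaSDmut replicates 1 to 3. Ccdc13 was at 0.238 and 0.260 CPM in controls and at 25.3, 40.4 and 38.1 CPM in betaSDmut islets. Barx2 was at 0.238 and 0.0865 CPM in controls and at 9.93, 28.6 and 22.1 CPM in betaSDmut islets. Pde6c was at 0.333 and 0.562 CPM in controls and at 18.0, 18.9 and 19.2 CPM in betaSDmut islets, the tightest of the 4 groups. In all 4 genes every betaSDmut library lay far above both controls. The mean levels in betaSDmut islets were at least 98.8-fold higher for Ccdc154 (against a floor of 3 counts over both controls, 0.0679 CPM), 139-fold for Ccdc13, 125-fold for Barx2 and 41.8-fold for Pde6c.

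These differences were large among all genes, as the choice of the genes requires. By the fitted log2 fold change of 15413 genes tested, Ccdc154 ranked 1, Ccdc13 5, Barx2 7 and Pde6c 16, where the fitted value of Ccdc154 depends on the count added to its zeros. For background, edgeR's quasi-likelihood test called 4.07% of the 15413 genes higher and 3.87% lower in betaSDmut islets, and in 23.8% all betaSDmut libraries lay above both controls. In the authors' deposited table the log2 fold changes were 8.14 for Ccdc154, 6.95 for Ccdc13, 6.77 for Barx2 and 5.33 for Pde6c, and it calls all but Barx2. In the level per transcript length, the authors' FPKM, the order in betaSDmut islets was Ccdc13 (17.1 ± 4.32, SD, n = 3), Barx2 (15.8 ± 7.56), Pde6c (7.59 ± 0.425) and Ccdc154 (0.821 ± 0.171). Ccdc13 and Barx2 do not differ beyond their spread, and both lay above Ccdc154 in every library.

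The FPKM of Ccdc154 was low for its counts. Counts per FPKM gave an implied length of 7470 to 9160 bp in betaSDmut islets and 6200 to 7680 bp in betaKO islets, against 2428 bp of exons and 9453 bp for the whole gene. For the other 3 genes the implied length was 1100 to 3320 bp against 1968 to 2970 bp of exons. The cause of this difference was not tested. The same direction was seen in its FPKM, listed at 0 in both control groups.

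**Figure D2:**
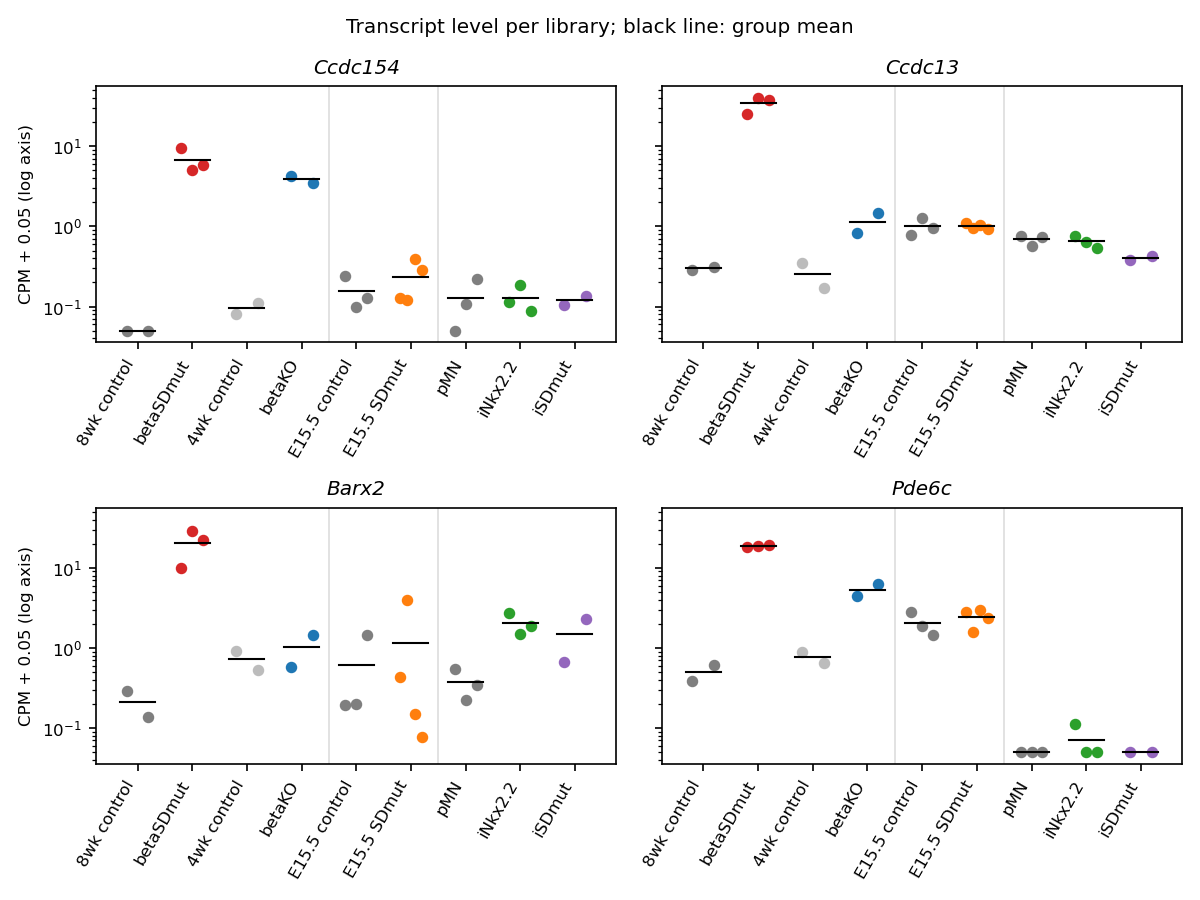
CPM plus 0.05 (log axis) of the 4 genes in each of 24 RNA libraries, with black lines at group means. The betaSDmut libraries are the highest of all groups for each gene, betaKO libraries are raised for Ccdc154 (3.44 and 4.21 CPM) and Pde6c (4.39 and 6.17 CPM), and Ccdc154 has at most 0.343 CPM in embryo and progenitors.

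The 4 genes did not vary together among the betaSDmut libraries. Replicate 1 had the lowest Ccdc13 and Barx2 and the highest Ccdc154, while Pde6c hardly moved. The same library had the lowest acinar sum (844 CPM for 8 acinar markers, against 1771 and 9793 CPM) and the only high Xist level of the 3 (738 CPM against 2.43 and 1.32 CPM). The part of either in the levels was not tested. Over the 9 islet libraries, Pearson's r of log2(CPM + 0.5) was 0.981 between Ccdc13 and Barx2 and 0.963 between Ccdc154 and Pde6c, and 0.768 to 0.931 for the other pairs. These values describe libraries that share their groups, and have no p.

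Other genes followed the same library pattern more closely. Of 15995 genes ranked over the 9 islet libraries, those most like Ccdc154 were Gm11837 (r = 0.994), Rps6ka6 (0.991) and Plekha1 (0.989). For Ccdc13 they were 6330403K07Rik (0.993), Gm2115 (0.992) and Wnt9a (0.991), a secreted Wnt ligand. For Barx2 they were Aqp4 (0.989), a water channel, Usp27x (0.984) and Sfrp2 (0.983), a secreted Wnt antagonist. For Pde6c they were Higd1a (0.990), Kcnj13 (0.987), a potassium channel, and Creg2 (0.985). Higd1a, the closest match of Pde6c on chromosome 19, is the neighbour of Ccdc13 on chromosome 9.

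The 4 genes belong to a small set with this off and on pattern. In 21 islet genes both 8wk controls were at or under 0.5 CPM and all 3 betaSDmut libraries at or over 2 CPM. Ccdc154, Ccdc13 and Barx2 were among the 21, and Pde6c fell just outside through control 2 (0.562 CPM). Among those of highest mean betaSDmut level were Slc5a10, a sugar transporter (157 CPM), Ccdc13 (34.6 CPM), Barx2 (20.2 CPM) and Ctnna3, a catenin of cell junctions (9.48 CPM). Slc5a10 spanned 21.8 to 282 CPM among the 3 mutant libraries and was lowest in replicate 1, as Ccdc13 and Barx2 were. Of the 21, 5 are named as Rhox3 genes, near-identical copies whose reads cannot be assigned with certainty, and LOC100043920, Gm13298 and LOC100862261 had nearly the same counts as each other. These were picked out after their values were seen. The count depends on the limits: with 0.5 and 5 CPM it was 5 genes, with 0.2 and 2 CPM 1 gene (Ccdc154), and leaving out 1 library in turn it was 21 to 35.

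**Figure D3:**
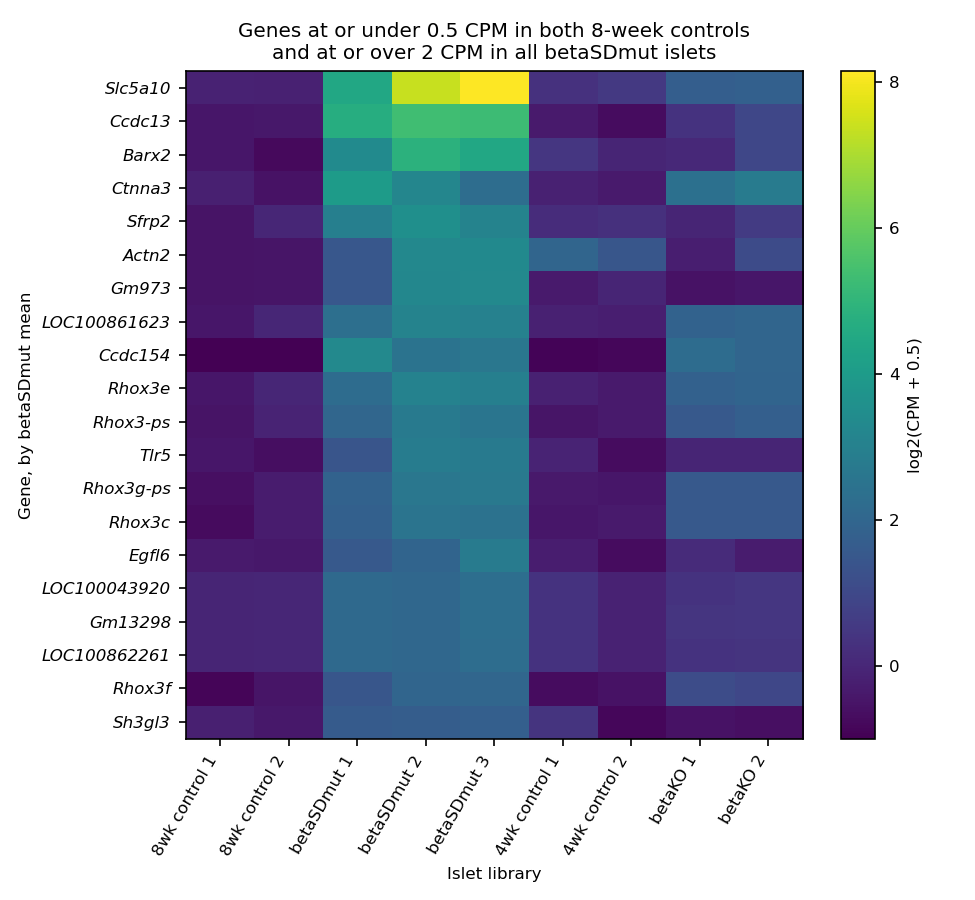
log2(CPM + 0.5) of 20 of the 21 genes at or under 0.5 CPM in both 8wk controls and at or over 2 CPM in all 3 betaSDmut libraries, in each of 9 islet libraries. Some rows, such as Ccdc154 and the Rhox3 genes, are also raised in both betaKO libraries, and others, such as Barx2, are not.

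Islets labelled betaKO, which the choice did not use, split the 4 genes. Ccdc154 and Pde6c were higher than in 4wk controls, Ccdc13 had a mean 5.24-fold that of its controls without passing the test, and Barx2 overlapped its controls. Ccdc154 and Ccdc13 passed the filter on low counts through the betaKO libraries alone, so no count of called genes among the 4 is given. Of the other 2, Pde6c was called higher and Barx2 was not, where edgeR called 0.81% of 14942 genes higher and 0.75% lower. Both betaKO libraries lay above both controls for Ccdc154, Ccdc13 and Pde6c, as they did for 22.2% of all genes tested. Of the 4 libraries, 4wk control 1 stood apart by Xist (984 CPM, against 0 in control 2 and at most 0.771 in betaKO islets), whose part in the values was not tested.

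Ccdc154 had 1 count in each 4wk control (0.0296 and 0.0593 CPM) and 71 and 44 counts in betaKO islets (4.21 and 3.44 CPM). Summed counts scaled for depth gave a ratio of 98.1 (95% exact interval 26.5 to 820, counting error only). In a fit with no filter on counts, which does not depend on the betaKO levels, the log2 fold change was 6.34 (SE 0.624, edgeR adjusted p = 0.00534), and 0.914% of 20343 genes were called higher. Pde6c was at 0.830 and 0.593 CPM in 4wk controls and at 4.39 and 6.17 CPM in betaKO islets. On the log2 scale this was a rise of 2.84 (SE 0.383, edgeR adjusted p = 0.0420). Both genes were higher in 2 of 2 betaKO libraries than in each control.

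Ccdc13 was at 0.296 and 0.119 CPM in 4wk controls and at 0.771 and 1.41 CPM in betaKO islets. The groups did not overlap, but the log2 fold change of 2.22 (SE 0.666) had an edgeR adjusted p of 0.208. Barx2 was at 0.860 and 0.475 CPM in 4wk controls and at 0.534 and 1.41 CPM in betaKO islets, which gave 0.46 on the log2 scale (SE 0.647, edgeR adjusted p = 0.798). Its counts were 8 to 29 per library. The authors' deposited table of betaKO against control calls Pde6c (log2 fold change 3.09) and neither Ccdc13 (2.10) nor Barx2 (1.26), and it has no row for Ccdc154.

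Set side by side, the mean levels in betaSDmut islets at 8 weeks were 1.76-fold those in betaKO islets at 4 weeks for Ccdc154, 3.54-fold for Pde6c, 20.8-fold for Barx2 and 31.8-fold for Ccdc13. Ages and libraries differ between these groups, and no test is given since betaSDmut values chose the genes. The islets labelled betaKO also held more transcripts of some other cell types. The acinar sum was 36390 and 12820 CPM against 9783 and 5267 CPM in 4wk controls, and 4 alpha-cell markers summed to 64170 and 52270 CPM against 30100 and 25730 CPM. Delta-cell markers summed to 5687 and 4307 CPM against 3312 and 1775 CPM, the PP-cell marker was at 8216 and 6596 CPM against 2569 and 2728 CPM, and Ghrl, the epsilon-cell hormone, was above both controls (5.75 and 6.47 CPM) in both betaKO libraries, at up to 26.9 CPM. Fibroblast and Schwann-cell sums were above both controls in both betaKO libraries too. Endothelial (166 and 208 CPM against 233 and 282 CPM) and immune sums (6.47 and 21.9 CPM against 57.9 and 24.6 CPM) were below both controls. Duct and muscle sums overlapped. In betaSDmut islets the acinar and alpha-cell sums were not above both 8wk controls. The delta-cell sum was, at 3272, 4889 and 3279 CPM against 2938 and 1938 CPM. So was the muscle sum, at 2.33, 3.17 and 3.37 CPM against 1.19 and 1.04 CPM. Fibroblast and Schwann-cell sums were below both 8wk controls in every betaSDmut library. PP-cell, epsilon-cell, duct, endothelial and immune levels overlapped their 8wk controls. The part of these cells in the values of either islet comparison was not tested, and in whole islets more cells of a type cannot be told apart from more RNA per cell.

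With so few libraries the betaKO results were not stable. Without 4wk control replicate 1 or 2, the fit with the count filter gave Ccdc154 an edgeR adjusted p of 0.112 or 0.116 and Pde6c 0.150 or 0.203, and without betaKO replicate 2 Pde6c had 0.109. Scaling by total library size gave 0.0541 for Pde6c, and DESeq2 called both genes.

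**Figure D4:**
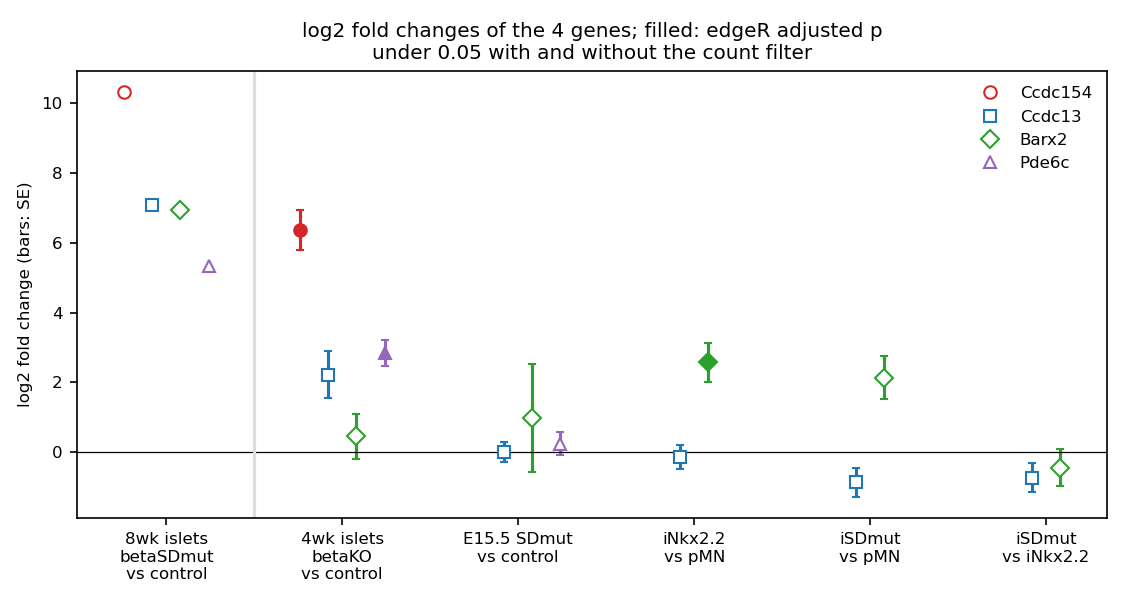
log2 fold changes of the 4 genes in 6 comparisons, with standard errors for those tested and filled symbols for an edgeR adjusted p under 0.05 both with and without the count filter. The 8-week values at the left chose the genes and carry no test, and the value of Ccdc154 there is fitted against 0 counts. Filled symbols are Ccdc154 and Pde6c in betaKO islets and Barx2 in iNkx2.2 progenitors.

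In E15.5 whole pancreas none of the 4 genes was called by edgeR. Beta-cell markers summed to 290 to 814 CPM in controls and 54.7 to 107 CPM in SDmut pancreas, and their part in the values was not tested. Of 3 genes tested, 0 passed, where 0.00534% of 18723 genes did (1 gene, against 25 by DESeq2). Without adjustment 475 genes (2.54%) had a p under 0.05, and none of the 3 was among them. Pde6c was present in all 7 libraries, at 2.73, 1.82 and 1.40 CPM in controls and 2.74, 1.51, 2.89 and 2.33 CPM in SDmut pancreas (log2 fold change 0.25, SE 0.338, edgeR adjusted p = 1.0). These levels lie above those of 4wk and 8wk control islets, in another tissue and table. Ccdc13 was at 0.724 to 1.23 CPM in controls and at 0.872 to 1.06 CPM in SDmut pancreas (log2 fold change 0.0033, SE 0.288). Ccdc154 had 2 to 14 counts per library and was not tested.

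Barx2 in E15.5 pancreas followed 2 libraries. It was at 0.145, 0.148 and 1.40 CPM in controls 1 to 3 and at 0.387, 3.90, 0.0981 and 0.0264 CPM in SDmut 1 to 4. The high values were in control 3 and SDmut 2, the libraries with muscle transcripts, as the plot of Barx2 against the muscle sum shows. Their part in the result was not tested. The fitted difference, 0.97 on the log2 scale (SE 1.55, edgeR adjusted p = 1.0), was smaller than the spread between libraries, and without these 2 libraries Barx2 did not pass the count filter.

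**Figure D5:**
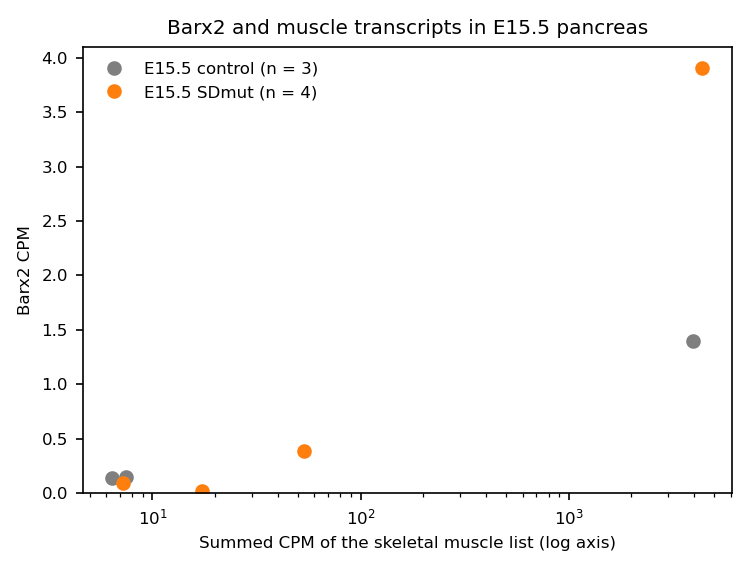
Barx2 CPM against the summed CPM of 4 muscle markers (log axis) in 3 control and 4 SDmut E15.5 pancreas libraries, each a point. The 2 libraries with muscle sums of 3948 and 4393 CPM have 1.40 and 3.90 CPM of Barx2, and the other 5 at most 0.387 CPM.

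Of the 4 genes, Ccdc13 and Barx2 could be tested in motor neuron progenitors, and Barx2 was called with wildtype Nkx2.2. The 5 progenitor markers summed to 792 to 953 CPM in pMN, 305 to 426 CPM in iNkx2.2 and 334 and 494 CPM in iSDmut cells, and their part in the result was not tested. Barx2 was at 0.493, 0.176 and 0.297 CPM in pMN replicates 1 to 3, at 2.67, 1.46 and 1.82 CPM in iNkx2.2 and at 0.610 and 2.26 CPM in iSDmut cells. Both induced groups lay above all pMN libraries. With wildtype Nkx2.2 it rose by 2.57 on the log2 scale (SE 0.558, edgeR adjusted p = 0.0220), in 3 of 3 libraries. For reference, 4.71% of 15653 genes were called higher, 4.78% lower, and 18.3% lay above all pMN libraries. Barx2 passed the count filter through induced libraries, with 1 pMN library past its limit, and with no filter the adjusted p by edgeR was 0.00324, where 3.36% of 25473 genes were called higher. For iSDmut against pMN the log2 fold change of Barx2 was 2.14 (SE 0.613, edgeR adjusted p = 0.0906). There 1.9% of genes were called higher, and 19.2% lay above all pMN libraries in both iSDmut libraries. For iSDmut against iNkx2.2 Barx2 had -0.43 (SE 0.530, edgeR adjusted p = 0.761), with 0.281% of genes called.

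The rise of Barx2 with wildtype Nkx2.2 kept its direction in all 14 alternatives, but the call did not hold in 6 of them. The fit with replicates as pairs kept it (adjusted p = 0.0173), within sequencing lane 2 it was lost (0.0579), and of 6 fits leaving out 1 library, the 1 without iNkx2.2 replicate 2 kept it (0.0349 to 0.0933). The fit with pairs called 2167 of 15653 genes higher and 2462 lower, against 738 and 748 in the main fit, which uses no pairs. Nkx2-2 rose from a mean of 9.13 CPM in pMN to 360 CPM in iNkx2.2 (log2 fold change 5.25, edgeR adjusted p = 1.49e-05) and 246 CPM in iSDmut cells (4.72, edgeR adjusted p = 4.01e-05).

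The other 3 genes stayed near the limit of detection in progenitors. Ccdc13 was at 0.527 to 0.712 CPM in pMN, 0.493 to 0.708 CPM in iNkx2.2 and 0.333 and 0.377 CPM in iSDmut cells, with 6 to 34 counts per library. Its log2 fold changes were -0.13 for iNkx2.2 and -0.86 for iSDmut against pMN (edgeR adjusted p = 0.880 and 0.298). Both iSDmut libraries lay below all others, as they did for 17.5% of genes against pMN and 18.4% against iNkx2.2. Ccdc154 had 0 to 4 counts per library. Pde6c had 0 counts in 7 of 8 libraries and 3 counts in iNkx2.2 replicate 1, and a count of 0 allows up to 0.114 to 0.176 CPM in those 7. Neither was tested.

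Some neighbours of the 4 genes were also higher in mutant islets. Of 12 tested among the nearest 2 protein-coding genes on each side, 3 rose and 0 fell at 8 weeks, where 4.07% of all genes rose and 3.87% fell (6 had an unadjusted p under 0.05, and DESeq2 called 6). In betaKO islets Rbp4, Ffar4 and Higd1a, the 3 of 8 weeks, rose again, of 13 tested (6 unadjusted, 5 by DESeq2), where 0.81% of all genes rose. Over all genes DESeq2 called 2041 of 15413 at 8 weeks and 770 of 14942 in betaKO islets. The counts by unadjusted p have no such reference here. Neighbours share their chromosome region and are not independent of each other.

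Rbp4, the retinol carrier of plasma, lies 7500 bp before Pde6c and is read in the opposite direction. It was at 129 and 135 CPM in 8wk controls and at 1606 to 1863 CPM in betaSDmut islets (log2 fold change 3.68, SE 0.122, edgeR adjusted p = 0.000382). In betaKO islets it was at 750 and 826 CPM against 99.7 and 112 CPM in controls (log2 fold change 2.89, SE 0.111, edgeR adjusted p = 0.00586). Unlike Pde6c it was well expressed in control islets. Ffar4, a receptor for long-chain fatty acids on the far side of Rbp4, rose by 1.91 at 8 weeks (SE 0.165, edgeR adjusted p = 0.00456) and by 2.04 in betaKO islets (SE 0.182, edgeR adjusted p = 0.0224), both on the log2 scale. The call of Ffar4 was lost without either control of its age. Fra10ac1 and Lgi1, on the other side of Pde6c, were not called.

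Higd1a, a hypoxia-induced protein of mitochondria, lies 9102 bp from Ccdc13, between it and the strong Nkx2.2 site. It was at 10.6 and 10.8 CPM in 8wk controls and at 78.2 to 81.3 CPM in betaSDmut islets (log2 fold change 2.88, SE 0.0717, edgeR adjusted p = 0.000278). In betaKO islets it was at 33.7 and 35.2 CPM against 9.08 and 9.13 CPM (log2 fold change 1.91, SE 0.114, edgeR adjusted p = 0.0147), while Ccdc13 itself did not pass there. Without 4wk control replicate 1 or 2 the adjusted p of Higd1a was 0.0697 or 0.0685. Clcn7, a chloride transporter that ends 357 bp before Ccdc154, had log2 fold changes of 0.18 at 8 weeks and 0.08 in betaKO islets (edgeR adjusted p = 0.205 and 0.784). BC003965, on the other side, had 0.48 (adjusted p = 0.0593) and 0.33 (0.420). Within 100 kb of Ccdc154 but outside the nearest genes, and picked here for their values, Unkl rose by 0.76 at 8 weeks and 0.97 in betaKO islets on the log2 scale (edgeR adjusted p = 0.0173 and 0.0372), and Baiap3 rose by 0.85 at 8 weeks (0.0144) and had 0.04 in betaKO islets (0.930). Both lost these calls without either control of the same age, apart from Baiap3 in betaKO islets, which had none.

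The protein-coding gene nearest to Barx2 lies 202674 bp away, and edgeR called 0 of 3 neighbours tested at 8 weeks and 0 of 4 in betaKO islets. Kcnj5, a potassium channel 401245 bp away, was at 0.428 and 10.5 CPM in 8wk controls and at 204 to 259 CPM in betaSDmut islets (log2 fold change 5.41, SE 1.16, edgeR adjusted p = 0.0675). It was at 0.0296 and 0.771 CPM in 4wk controls and at 77.7 and 65.8 CPM in betaKO islets (7.89, SE 0.886, edgeR adjusted p = 0.0746). The groups lay far apart, and DESeq2 called Kcnj5 in both (adjusted p = 0.000669 and 0.000294), as did edgeR without either control of the same age. Its size rested on those controls: without 8wk control replicate 1 or 2 the log2 fold change was 4.49 or 9.09, and without 4wk control replicate 1 or 2 it was 6.52 or 10.97.

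Gm38655, whose start lies between Ccdc154 and the strong Nkx2.2 site, has a row in the E15.5 table alone. It was at 2.10, 1.21 and 1.11 CPM in controls and at 4.00, 4.78, 6.74 and 7.43 CPM in SDmut pancreas, so the groups did not overlap. The log2 fold change was 1.95 (SE 0.350), which edgeR did not call (adjusted p = 1.0) and DESeq2 did (adjusted p = 8.93e-05). Of 15 neighbours tested at E15.5, edgeR called 0, 3 had an unadjusted p under 0.05, and DESeq2 called this 1. In progenitors 1 of 8 neighbours fell with wildtype Nkx2.2 and 0 rose: Higd1a went from a mean of 67.2 to 44.4 CPM (log2 fold change -0.65, SE 0.163, edgeR adjusted p = 0.0380).

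Genes of the same families were examined without the 4 members. Their counts stand against 4.07% of all genes called higher and 3.87% lower at 8 weeks, and 0.81% and 0.75% in betaKO islets. In iNkx2.2 progenitors the shares were 4.71% and 4.78%. For iSDmut against pMN 1.9% were called higher and 257 of 15653 lower, and 0.281% were called between the induced lines. DESeq2 called 2041 of 15413 genes at 8 weeks, 770 of 14942 in betaKO islets and 2271 of 15653 in iNkx2.2 progenitors. Counts by unadjusted p have no such reference in islets and progenitors. Of 19 other cyclic nucleotide phosphodiesterases tested at 8 weeks, 5 rose and 1 fell, with a median log2 fold change of 0.09 against 0.01 over all genes. Of the 19, 11 reached an unadjusted p under 0.05, and DESeq2 called 7. Those that rose were Pde4c (0.99), Pde3a (1.78), Pde4d (0.75), Pde1b (0.84) and Pde11a (4.89, SE 0.974, edgeR adjusted p = 0.0438), the last named beyond the rule of 4 since it recurs below. Pde1c fell (-0.62). Pde11a, which hydrolyses both cyclic nucleotides, was the 1 of 18 called in betaKO islets (7 unadjusted, 2 by DESeq2), from a mean of 0.151 to 3.42 CPM (log2 fold change 4.52, SE 0.483, edgeR adjusted p = 0.0314). It lost the 8-week call without either 8wk control and without betaSDmut replicate 2 or 3, and the other without either 4wk control or betaKO replicate 2. With no count filter its 8-week adjusted p by edgeR was 0.0644. Its 4wk control mean lay under the filter limit of 0.587 CPM, so it passed the filter through betaKO libraries. The betaKO call held with no filter. In iNkx2.2 progenitors 4 of 16 rose and 1 fell (9 unadjusted, 6 by DESeq2). Pde11a was among them there too (2.89, SE 0.405, edgeR adjusted p = 0.00345), with Pde9a (2.30), Pde2a (2.00) and Pde5a (0.64) rising and Pde3b (-0.47) falling. In iSDmut against pMN 3 of 16 rose, Pde11a (4.25, SE 0.424, edgeR adjusted p = 0.0014), Pde9a (2.43) and Pde1b (1.18), and 0 fell. Between the induced lines Pde11a was at 6.41 CPM in iSDmut and 2.54 CPM in iNkx2.2 cells (1.36 on the log2 scale, SE 0.350, adjusted p = 0.158 by edgeR). Pde1b was called higher in iSDmut than in iNkx2.2 cells (1.38).

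Few other genes of the light response passed the test. Of 37 listed, 14 could be tested in islets. Of these, 1 rose at 8 weeks, the cone transducin subunit Gnat2, from 21.7 to 29.8 CPM (log2 fold change 0.44, SE 0.0793, edgeR adjusted p = 0.0287). That call was lost without 8wk control replicate 1 or 2 (0.224 and 0.180) and without betaSDmut replicate 2 (0.0981). In betaKO islets 0 were called (2 with an unadjusted p under 0.05, 0 by DESeq2). Of 6 photoreceptor markers, the cone opsin Opn1mw and cone arrestin Arr3 were at 0 in all 8-week islets. Their summed level, nearly all Gnat2, was 21.5 and 23.0 CPM in 8wk controls, 29.9 to 31.4 CPM in betaSDmut islets, and 18.9 to 19.0 CPM in betaKO islets against 20.6 to 20.9 CPM in 4wk controls. In iNkx2.2 progenitors 3 of 11 rose: Rgs9, a brake on transducin (0.72), the rod arrestin Sag (3.20) and the rod factor Nrl (6.92, from 0 counts in pMN, a fitted value and no bound). In iSDmut against pMN 2 of 11 rose, Sag (3.71) and Rgs9 (0.70).

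Of 5 other Bar-family and NK-class homeobox genes tested at 8 weeks, 1 rose and 1 fell. Barhl1, known from the nervous system, rose from 0.859 to 3.38 CPM (log2 fold change 1.96, edgeR adjusted p = 0.0144). That call was lost without 8wk control replicate 1 or 2 or betaSDmut replicate 2. Nkx6-1, a factor of beta-cell identity, fell from 209 to 113 CPM (log2 fold change -0.91, edgeR adjusted p = 0.0174), a call lost without 8wk control replicate 1 or 2 or betaSDmut replicate 2 (0.147, 0.180 and 0.0783). In betaKO islets edgeR called 0 of 5 (2 unadjusted, 1 by DESeq2). Nkx6-1 was at a mean of 90.9 CPM there against 200 CPM in 4wk controls (-1.14 on the log2 scale, SE 0.267, adjusted p = 0.182 by edgeR). DESeq2 called it (adjusted p = 3.15e-05). In iNkx2.2 progenitors, where Barx2 rose, 2 of 16 rose, the induced Nkx2-2 and Tlx1 (3.06), and 3 fell, Nkx2-9 (-4.91), Nkx2-1 (-3.68) and Dbx2 (-1.57). In iSDmut against pMN 4 of 16 rose, Nkx2-2, Tlx1 (2.52), Tlx2 (3.82) and Lbx1 (3.12), and 3 fell, Nkx2-9 (-2.90), Nkx6-2 (-1.31) and Dbx2 (-2.49).

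Of 24 centriolar satellite and transition zone genes tested beside Ccdc13 at 8 weeks, Cep290 rose (0.59, edgeR adjusted p = 0.0148) and Wdr67 fell (-0.53, 0.0436). Leaving out 1 library ended the call of Cep290 in 3 of 5 fits (0.0561 to 0.155) and that of Wdr67 in 4 of 5 (0.0865 to 0.282), and Wdr67 also lost it with total library size (0.0724) and with no filter (0.0536). In betaKO islets 0 of 24 were called (1 unadjusted, 0 by DESeq2). Among genes merely named Ccdc for a coiled coil, 8 of 117 rose and 1 fell at 8 weeks. Those of lowest p were Ccdc162 (1.20), Ccdc67 (3.51), Ccdc42b (2.78) and Ccdc112 (0.93), with Ccdc141 falling (-1.98). Ccdc67, which takes part in making centrioles in multiciliated cells, was the 1 of 113 called in betaKO islets (3.27, SE 0.356, edgeR adjusted p = 0.0318), a call lost without either 4wk control or betaKO replicate 2. Of 8 other genes of osteopetrosis and osteoclast acidification, tested beside Ccdc154, 0 were called by edgeR in either islet comparison (2 and 1 unadjusted, 1 and 0 by DESeq2). At E15.5 edgeR called 0 genes of the 6 lists (0 to 2 in each with an unadjusted p under 0.05, 0 by DESeq2).

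The wider off and on set was mixed in betaKO islets too. Both betaKO libraries reached 2 CPM in 8 of the 21, and no count of called genes is given, since genes near 0 in controls pass the count filter through the betaKO libraries. Ctnna3 was at 0.385 and 0.297 CPM in 4wk controls and at 4.75 and 6.41 CPM in betaKO islets. Slc5a10, the most abundant in betaSDmut islets, was at 2.85 and 2.97 CPM in betaKO islets (1.78, edgeR adjusted p = 0.108). In embryonic pancreas 8 of 17 genes matched reached 2 CPM in at least 1 library, and in progenitors 6 of 18.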

How the data were processed

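RNA of 24 libraries (islets, E15.5 pancreas, progenitors) and Nkx2.2 ChIP-seq of 2 MIN6 libraries were used. The authors deposited raw read counts per gene, FPKM values, counts in 500 bp at GEM events and log2 CPM at final sites, per the description deposited with the files. Their deposited tables of log2 fold changes and p-values came from DESeq2 for the embryo and from edgeR and limma for islets. STAR, Cufflinks and mm10 are named in the submitters' processing notes, without role, and the counting rule and the use of strand are not given in the sources used here. So reads of antisense, overlapping or near-identical genes cannot be told apart.

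The 4 genes and the gene lists were chosen with earlier results of these data known. The test was the robust quasi-likelihood test of edgeR 4.0.16 (R 4.3.3, TMM, filterByExpr, Benjamini-Hochberg adjustment over all genes tested, threshold 0.05). Standard errors were derived from the log2 fold change and the F statistic. Each islet comparison used its age-matched libraries, the embryonic one its 7 libraries, and progenitors 1 model of 8 libraries. Test means use the scaling of the libraries in the fit, other levels that of the whole table. The fits were first tested on simulated counts. DESeq2 1.42.0, RLE factors, total library size, other filters, replicate blocks and leaving out libraries were alternatives. Fits within lane 2, without 2 embryonic libraries, and the search for AAGTG were added after the data were seen.

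Same-numbered pMN and iNkx2.2 libraries deviated together (correlations 0.561, 0.549 and 0.584), so equal numbers count as a pair there. The main progenitor fit does not use these pairs, and the replicate block does. Replicate 3 of both was in lane 4, and iSDmut replicate 2 was in a lane of its own. The part of lane in the iSDmut levels of Barx2 (0.610 and 2.26 CPM) was not tested. The islet numbers did not deviate together (-0.0391 at 4 weeks, -0.0838 and -0.127 at 8 weeks). For iSDmut replicate 1 the correlation was 0.376 with pMN and 0.334 with iNkx2.2, and for replicate 2 it was 0.054 and 0.108. With 2 libraries that differ in this, the iSDmut numbers were not read as pairs.

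Named were, by rule, the 4 genes, Nkx2-2, the nearest 2 protein-coding genes on each side, up to 4 list genes per direction and comparison with an adjusted p under 0.05, the 3 genes of highest correlation and the 5 highest off and on genes, of which 1 is not reported here. Older symbols of the tables (O3far1 for Ffar4, 5730455O13Rik for Fra10ac1) were matched through RefSeq. Positions are GENCODE vM21, sequence is RefSeq GRCm38.p6. Event levels are log2 CPM with a pseudocount of 1. The input library was not used here.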

Additional observations from a re-analysis of the deposited data

Results flagged for a closer look

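Barx2 in E15.5 SDmut replicate 2 was at 3.90 CPM, far from the other 3 SDmut libraries (0.0264 to 0.387 CPM). The gap to the nearest was 0.907 of the whole range, above the 95% critical value of Dixon's test for 4 samples, which chance passes in about 1 group of 20. It was the 1 value past that limit of 7 genes examined in this group. The same library had a muscle marker sum of 4393 CPM, and its part in the value was not tested.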

How the results depend on the processing

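Counts of genes called moved most. DESeq2 called 2041 genes (1224 by edgeR) in 8-week islets, 770 (233) in 4-week islets, 25 (1) at E15.5, 2271 (1486) for iNkx2.2 and 1388 (554) for iSDmut against pMN, and 476 (44) for iSDmut against iNkx2.2. The replicate block gave 757 genes in 8-week islets and, in progenitors, 4629, 2626 and 528; a block for the number in the embryonic titles gave 0. The block ended 1 call among the 4 genes, Pde6c in betaKO islets (log2 fold change 2.83, edgeR adjusted p 0.0701). At 8 weeks the block ended those of Gnat2 (0.0815), Wdr67 (0.126), Pde1b (0.0665) and Pde1c (0.0585). In betaKO islets it gave 1 for Nkx6-1 (0.0277). Total library size gave 127 genes at 4 weeks and 2 at E15.5, a filter of 1 CPM 2 at E15.5, no filter 372 at 4 weeks and 145 for iSDmut against iNkx2.2. Fits of 2 groups alone gave 295 and 13 genes for iSDmut, and within lane 2, with the lone iSDmut library assumed to vary like the other groups, 151 and 243.

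Leaving out 1 library gave 37 to 2765 genes at 8 weeks, 4 to 478 at 4 weeks, 0 to 2 at E15.5, 412 to 1299, 171 to 349 and 2 to 467 in progenitors; a group left with 1 library is assumed to vary like the others. Over these fits Ccdc154 in betaKO islets had log2 fold changes of 5.83 to 6.74, Pde6c 2.58 to 3.13 (called in 1 of 4) and Barx2 -0.36 to 1.03. Barx2 had 2.30 to 2.98 for iNkx2.2 against pMN, 0.90 to 2.76 for iSDmut against pMN and -1.67 to 0.18 for iSDmut against iNkx2.2. Ccdc13 at E15.5 had -0.16 to 0.23. Baiap3 had -0.098 to 0.19, Ccdc112 -0.011 to 0.22, Ccdc141 -0.89 to 0.039, Pde1b -0.078 to 0.033 and Nkx2-2 -0.47 to 0.053 at 4 weeks, and Nkx2-2 -0.21 to 0.011 at 8 weeks and -0.26 to 0.066 at E15.5. Rbp4 was called in all 9 islet fits and Higd1a in 7 of 9.

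Total library size gave Pde6c 2.77 in betaKO islets (adjusted p 0.0541), Ccdc13 -0.013 at E15.5, Baiap3 -0.050 and Clcn7 -0.0047 at 4 weeks. Without the 2 muscle libraries Ccdc13 had -0.0045 at E15.5. Within lane 2 Barx2 had 2.57 (0.0579) and Ccdc13 0.039 for iNkx2.2 against pMN. For iSDmut against pMN, Barx2 was called without a filter (2.17, 0.0430) and by DESeq2 (2.15, 0.0342). The off and on set held 5 genes at limits of 0.5 and 5 CPM, 1 at 0.2 and 2 CPM, and 21 to 35 without 1 library. DESeq2 gave no adjusted p for Barx2 at E15.5. The causes were not tested.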
